A study of Mus musculus with 24 samples.

Results

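Ribosome biogenesis factors are the nuclear and nucleolar proteins that make ribosomes without being part of them. A list of 40 such genes was followed across primary mouse muscle cells. A gene was measured where a transcript cluster, the set of array probes assigned to a locus, carried its symbol and no other, and the brightest such cluster stood for the gene. This gave 39 of the 40 listed genes among 22180 genes in all. Fbl, the methyltransferase of box C/D particles, was found only in a cluster shared with other genes and was left out. No filter on dim signal was applied, so all 39 measured members entered every test.

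Ribosome production starts in the nucleolus, where RNA polymerase I copies the ribosomal DNA into a long precursor with the help of the factors UBF (Ubtf) and TIF-IA (Rrn3). Small nucleolar particles then modify that precursor: box C/D particles add methyl groups and box H/ACA particles make pseudouridine. The small subunit processome and a series of large subunit assembly factors fold, cut and export the pre-ribosomes. The pathway is a large energy expense of a cell, is known to follow nutrients and growth factors, and in muscle is known to accompany growth of the fibres.

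The cells came from the quadriceps of ICR mice, were grown with fibroblast growth factor and were differentiated at near confluence. Control dams ate freely, whereas undernourished dams received 50% of the control amount of food from gestation day 12.5 until birth. All mothers ate freely after delivery, and all litters were equalised to 8 pups. Standard medium was the differentiation medium, with 5.5 mM glucose and 2% serum. Limited medium, given overnight, had glucose at 0.5 mM, glutamine at 1 mM, serum at 1% and carnitine at 0.5 mM, so glucose and serum changed with the medium, and their parts cannot be told apart, nor from any part of the glutamine and carnitine named for limited medium alone. The 4 groups were control standard, control limited, undernourished standard and undernourished limited, with 6 arrays each. Every array carries a culture number, 12 numbers in all, each found once in each medium of a maternal diet. The labels do not say whether a number is an animal, a litter or a flask, and they give neither the sex nor the age of the offspring.

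The arrays had medians from 5.60 to 5.81, read as log2 signal, and no pair of arrays held identical values. Myotube markers averaged between 11.16 and 11.47 over the groups (14 genes) and myoblast markers between 8.49 and 8.54 (7 genes). Fibroblast markers averaged between 5.84 and 6.22 (8 genes), glial markers between 5.05 and 5.13 (5 genes), endothelial markers between 5.04 and 5.14 (5 genes) and leukocyte markers between 5.24 and 5.34 (5 genes). Cultures 16 (control) and 20 (undernourished) stood apart by fibroblast markers, at 7.47 and 7.37 over both media, against 5.46 to 6.33 in the other 10 cultures. Array values have no true zero, so no marker can be said to be at 0.

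A part of the ribosome biogenesis factors rose in limited medium. Over both maternal diets 7 of the 39 members were higher in limited medium at an adjusted p under 0.05 (limma, Benjamini-Hochberg over all genes) and 0 were lower. They were Ubtf, Bop1, Noc4l, Nob1, Rrp9, Imp4 and Nop16, and their differences ran from 0.21 to 0.33 on the log2 scale, or 1.16-fold to 1.26-fold. Of all 22180 genes, 6.84% were called in this comparison, 3.56% higher and 3.28% lower, beside 17.9% and 0% of the members. All 39 members lay at or above the median signal of the table, whereas the share over all genes includes dim genes. By the length classes given below, 9.07%, 7.77% and 4.00% of short, middle and long genes at or above that signal were called higher. Testing the genes at or above it alone called 1794 genes, more than the 1517 called among all 22180, and 10 of 39 members (9 higher, 1 lower). A larger share of these brighter genes was thus called, so the members stood less apart from them than the 6.84% shows. The difference was above 0 for 32 of 39 members and for 11491 of 22180 genes. Its median was 0.11 over the members and 0.01 over all genes. The members' median was 0.07 without culture 4 and 0.16 without culture 20, the extremes of leaving out 1 culture. A further quantile normalisation gave 0.07, with 27 of 39 above 0. Markers of muscle cells moved as well: 12 of 14 myotube markers were above 0 and 2 rose, Tnni2 by 0.49 ± 0.11 and Ckm by 0.47 ± 0.12. Of 7 myoblast markers 2 were above 0, and Vcam1 fell by 0.45 ± 0.10, lower in 12 of 12 cultures. The part of these markers in the result was not tested. In whole cultures, fewer cells of a type and less RNA per cell cannot be told apart.

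**Figure D1:**
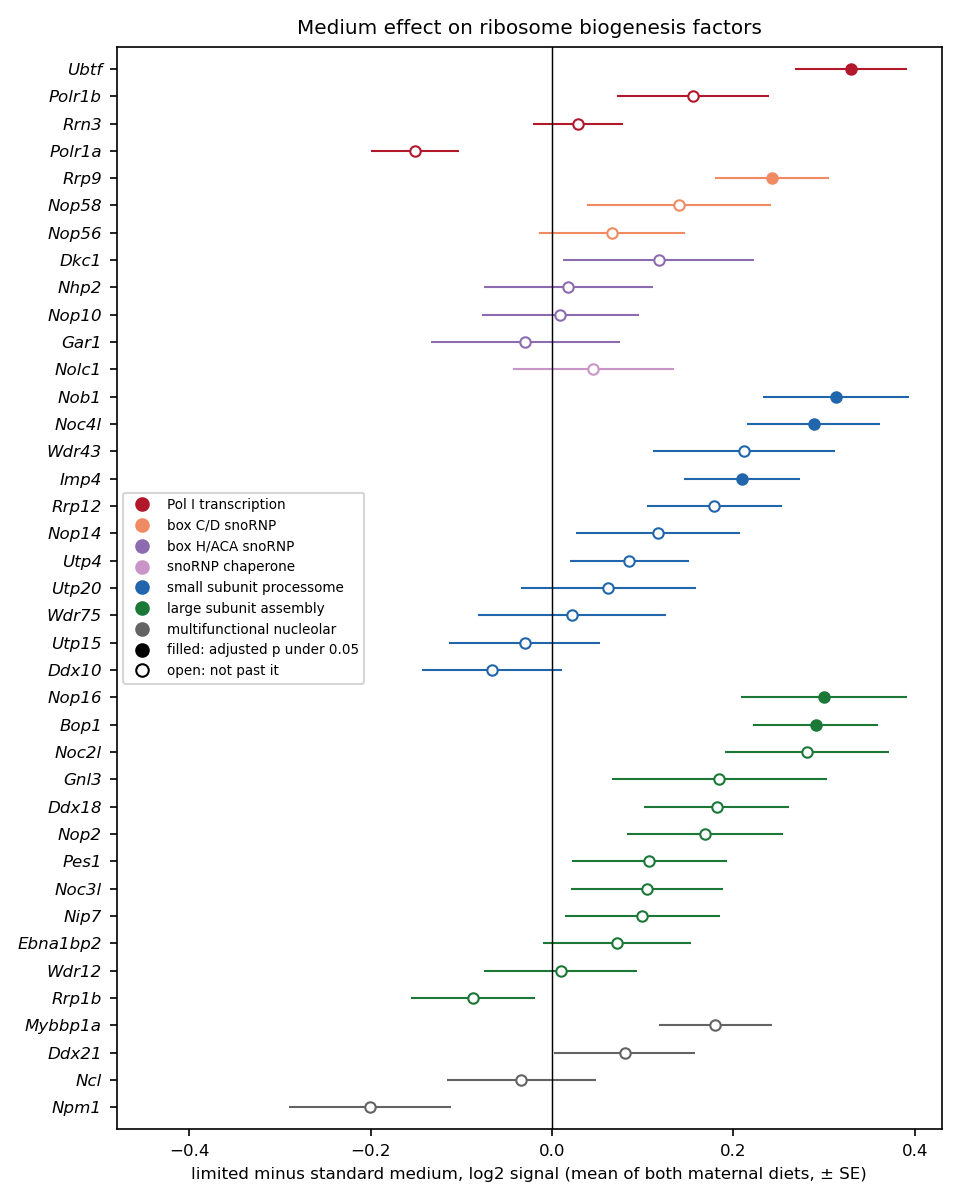
Difference in log2 signal between limited and standard medium (horizontal axis, mean of both maternal diets, bars ± SE of the fit) for the 39 members, grouped by role. Filled points are the 7 members past an adjusted p of 0.05, all to the right of 0, and 7 of the 39 points lie to the left of it, with Npm1 and Polr1a farthest.

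Among the 4 genes of RNA polymerase I transcription, Ubtf rose and no other member was called. Ubtf encodes UBF, which bends ribosomal DNA and opens it for the polymerase. Its log2 signal (lowest, median, highest of 6 arrays) was 8.71, 8.86 and 9.02 in control standard and 8.94, 9.16 and 9.30 in control limited. In undernourished cells it was 8.60, 8.88 and 9.07 in standard and 9.05, 9.23 and 9.39 in limited medium. The groups overlapped slightly, yet 9 of the 12 limited arrays lay above all 12 standard arrays. The difference was 0.33 ± 0.06 (SE; limma adjusted p = 0.00189), and Ubtf was higher in limited medium in 11 of 12 cultures, the exception being control culture 16.

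Polr1a, the largest subunit of RNA polymerase I, lay on the other side of 0. Its signal was 8.89, 9.00 and 9.15 (lowest, median, highest) in control standard and 8.64, 8.75 and 8.92 in control limited arrays. In undernourished cells it was 8.77, 8.86 and 8.99 in standard and 8.67, 8.79 and 8.96 in limited medium. The control groups overlapped only at their edges and the undernourished groups overlapped widely. The difference over both diets was -0.15 ± 0.05 (SE; limma adjusted p = 0.0616), which missed the threshold, and in 10 of 12 cultures the limited array of Polr1a was the lower one. It passed the threshold, as lower, where the arrays were quantile-normalised again (adjusted p = 0.0229), with array weights (0.0300), among genes at or above the median signal alone (0.0354) and without culture 9 (0.0347). Polr1a also passed where the fit took the culture number as a random block, as given at the end. The other subunit of the catalytic core, Polr1b, stood at 0.16 ± 0.08 and Rrn3, which recruits the polymerase to the promoter, at 0.03 ± 0.05, both short of the threshold.

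Of the small nucleolar particle genes, Rrp9 alone was called. Rrp9 encodes U3-55K, the protein specific to the U3 box C/D particle that guides the first cuts of the precursor. Its signal was 6.90, 7.28 and 7.49 in control standard, 7.27, 7.38 and 7.61 in control limited, 7.03, 7.20 and 7.31 in undernourished standard and 7.36, 7.49 and 7.60 in undernourished limited arrays. The undernourished groups did not overlap, the control groups did, and the limited array was the higher one in 12 of 12 cultures. The share of all genes whose undernourished groups did not overlap was not counted. The difference was 0.24 ± 0.06 (SE; limma adjusted p = 0.0180), and it missed the threshold without culture 4 (adjusted p = 0.0652). The core box C/D proteins Nop58 (0.14 ± 0.10) and Nop56 (0.07 ± 0.08) did not pass. The 4 box H/ACA genes stood near 0: Dkc1, the pseudouridine synthase, had 0.12 ± 0.11, and Nhp2, Nop10 and Gar1 had differences between -0.03 and 0.02. Nolc1, a chaperone of both kinds of particle, had 0.05 ± 0.09.

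In the small subunit group 3 of 11 genes rose, 0 fell and 9 of 11 differences were above 0. Nob1 is the endonuclease that makes the last cut of the small subunit RNA. Its signal was 8.97, 9.16 and 9.65 in control standard, 9.15, 9.56 and 9.66 in control limited, 9.05, 9.21 and 9.44 in undernourished standard and 9.21, 9.60 and 9.80 in undernourished limited arrays. All groups overlapped, but Nob1 was higher in limited medium in 12 of 12 cultures. The difference was 0.31 ± 0.08 (SE; limma adjusted p = 0.0173), with adjusted p = 0.0581 without culture 5 and 0.0599 without culture 4.

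Noc4l is a nucleolar partner of Nop14 in small subunit maturation. Its signal was 7.21, 7.52 and 7.76 in control standard, 7.41, 7.73 and 8.02 in control limited, 7.20, 7.43 and 7.60 in undernourished standard and 7.63, 7.74 and 7.87 in undernourished limited arrays. Every undernourished limited array lay above every undernourished standard array, while the control groups overlapped. The difference was 0.29 ± 0.07 (SE; limma adjusted p = 0.0165), with 11 of 12 cultures higher.

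Imp4, which helps pair the U3 RNA with the precursor, was the least secure of the small subunit calls. Its signal was 7.98, 8.23 and 8.53 in control standard, 8.25, 8.44 and 8.55 in control limited, 8.09, 8.26 and 8.44 in undernourished standard and 8.32, 8.51 and 8.67 in undernourished limited arrays. The groups overlapped in both diets, and Imp4 was higher in 10 of 12 cultures. The difference was 0.21 ± 0.06 (SE; limma adjusted p = 0.0464), close to the threshold. Leaving out culture 4, 5, 9, 10, 11, 12, 15, 1 or 20 took it past 0.05, with adjusted p up to 0.126. The other 8 small subunit genes did not pass: Wdr43 had 0.21 ± 0.10, Rrp12 0.18 ± 0.07, Nop14 0.12 ± 0.09, and Utp4, Utp20, Wdr75, Utp15 and Ddx10 lay between -0.07 and 0.09.

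Of the 12 large subunit genes 2 rose, 0 fell and 11 had differences above 0. Bop1 forms, with Pes1 and Wdr12, a complex needed for processing of the large subunit RNA. Its signal was 8.67, 9.04 and 9.38 in control standard, 9.10, 9.37 and 9.50 in control limited, 8.89, 8.96 and 9.06 in undernourished standard and 9.09, 9.25 and 9.34 in undernourished limited arrays. The undernourished groups did not overlap, the control groups did, and Bop1 was higher in limited medium in 12 of 12 cultures. The difference was 0.29 ± 0.07 (SE; limma adjusted p = 0.0105). Its partners did not pass, with Pes1 at 0.11 ± 0.09 and Wdr12 at 0.01 ± 0.08. The Bop1 locus overlaps Scx, which was itself 0.46 higher in limited medium, and the strand that the probes read is not given in the sources used here, so the Bop1 value is uncertain.

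Nop16, a nucleolar protein of large subunit assembly, was the second call in that group. Its signal was 8.31, 8.72 and 9.15 in control standard, 8.66, 9.04 and 9.15 in control limited, 8.31, 8.73 and 8.93 in undernourished standard and 8.78, 9.03 and 9.23 in undernourished limited arrays. The media overlapped widely, and only 2 of 12 limited arrays exceeded all standard arrays. The difference was 0.30 ± 0.09 (SE; limma adjusted p = 0.0469), with 10 of 12 cultures higher. Leaving out culture 1, 4, 5, 9, 10, 11 or 12 ended the call, with adjusted p up to 0.135.

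Noc2l, a nucleolar partner of Noc3l in export of the large subunit, came close without passing. Its signal was 8.28, 8.48 and 8.74 in undernourished standard and 8.79, 8.88 and 9.08 in undernourished limited arrays, which did not overlap. In control cells it was 8.35, 8.83 and 9.24 in standard and 8.70, 8.81 and 9.37 in limited medium, which overlapped almost fully. The difference over both diets was 0.28 ± 0.09 (SE; limma adjusted p = 0.0620), with 11 of 12 cultures higher, and it passed among genes at or above the median signal alone (0.0383) and without culture 10 (0.0345). Noc2l also passed in both fits that took the culture number as a block, as given at the end. Gnl3 (nucleostemin) had 0.18 ± 0.12, Ddx18 0.18 ± 0.08, Nop2 0.17 ± 0.09, and Noc3l, Nip7 and Ebna1bp2 0.11, 0.10 and 0.07. Rrp1b was the only large subunit gene below 0, at -0.09 ± 0.07.

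The 4 multifunctional nucleolar proteins held no call and split in direction. Mybbp1a, a Myb-binding nucleolar protein, had 0.18 ± 0.06 (SE; limma adjusted p = 0.0821), which passed without culture 16 (0.0378) and among genes at or above the median signal alone (0.0497), and the helicase gene Ddx21 had 0.08 ± 0.08. Mybbp1a also passed in both fits with the culture number as a block. Ncl (nucleolin), a histone chaperone of ribosomal DNA, had -0.03 ± 0.08. Npm1 (nucleophosmin), a chaperone of pre-ribosomes and histones, was farthest below 0 of all members at -0.20 ± 0.09 (SE; limma adjusted p = 0.197), with 8 of 12 cultures lower. Npm1 has near-identical copies in the genome, so part of its signal may come from other loci.

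**Figure D2:**
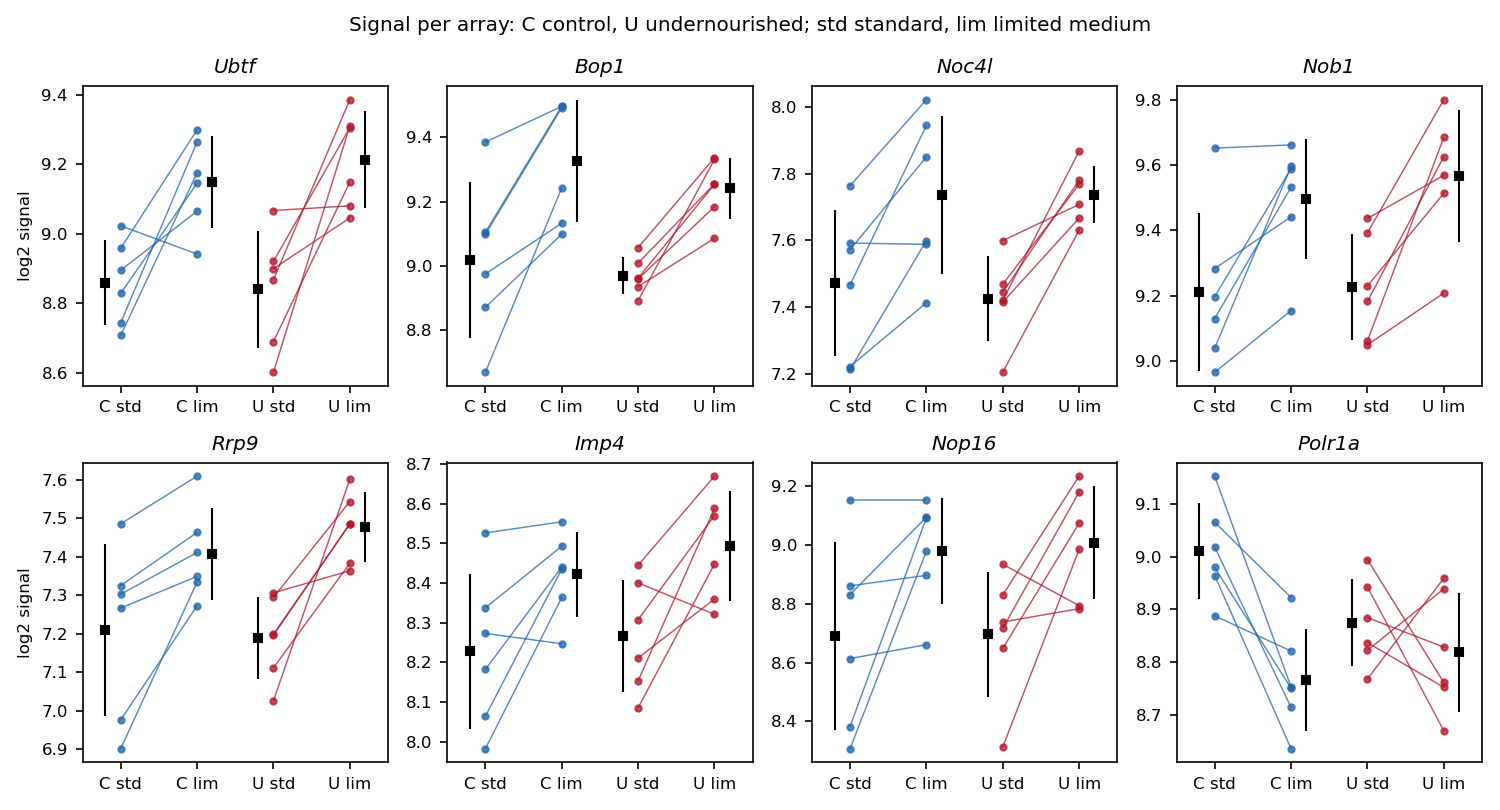
Log2 signal per array (vertical axis, a separate scale in each panel) for the 7 called members and Polr1a in the 4 groups. Points are arrays, lines join arrays with the same culture number, and black squares with bars give mean ± SD (n = 6). Bop1, Nob1 and Rrp9 go up in 12 of 12 lines, and Polr1a goes down in 6 of 6 control lines.

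Seen by culture, 8 members were higher in limited medium in at least 10 of 12 cultures, which held for 9.82% of all genes. Bop1, Nob1 and Rrp9 were higher in 12 of 12, as were 1.36% of all genes. For 0 of 39 members did all 12 limited arrays lie above all 12 standard arrays, which was the case for 0.0541% of all genes. The SD within groups had a median of 0.20 over the members and 0.18 over all genes. For the called members it averaged 0.14 in Ubtf and Rrp9, 0.15 in Bop1 and Imp4, 0.17 in Noc4l, 0.20 in Nob1 and 0.23 in Nop16. Their differences of 0.21 to 0.33 were each larger than the gene's own SD, and a low SD is part of what a call rests on.

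Promoter sequence from RefSeq (GRCm38.p6, from 250 bases before to 50 after the annotated start) was at hand for 36 of the 39 members. Because the pathway is a known target of the Myc and Max proteins, the windows were searched for the E-box CACGTG, which reads the same on both strands. It was present in the windows of 8 of 36 members (22.2%), against 9.22% of the 16918 measured genes with a window and 8.09% of all 27025 genes of the table. Of the called members with a window only Imp4 held it. Bop1, also called, had no window and was not searched, and neither were Rrp12 and Npm1. The sequences before the start are shown for Imp4 and, with the E-box in capitals, for Nop2 and Rrn3, which were not called.
Imp4, chr1:34439679-34439828, plus strand: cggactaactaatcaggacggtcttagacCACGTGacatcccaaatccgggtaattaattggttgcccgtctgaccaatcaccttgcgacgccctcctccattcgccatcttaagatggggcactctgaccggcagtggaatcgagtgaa
Nop2, chr6:125131793-125131858, plus strand: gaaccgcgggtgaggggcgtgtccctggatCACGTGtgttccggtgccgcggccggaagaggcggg
Rrn3, chr16:13780621-13780686, plus strand: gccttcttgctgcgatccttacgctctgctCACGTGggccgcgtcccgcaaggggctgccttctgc
The E-box of Imp4 lay at bases -121 to -116 from the start, that of Nop2 at -60 to -55, and Rrn3 had a further one at -215 to -210. In Utp4, Utp20, Pes1, Mybbp1a and Wdr43 it lay after the start.

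The 100 bases before the start are given for Noc4l, Nob1 and Rrp9, called members with a single start in the table, where these bases lie outside the annotated gene; none of the 3 held an E-box in its window. They are printed 5′ to 3′ on the strand of the gene.
Noc4l, chr5:110653383-110653482, minus strand: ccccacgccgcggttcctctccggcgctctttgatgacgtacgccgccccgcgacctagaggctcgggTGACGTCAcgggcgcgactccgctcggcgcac
Nob1, chr8:107425039-107425138, minus strand: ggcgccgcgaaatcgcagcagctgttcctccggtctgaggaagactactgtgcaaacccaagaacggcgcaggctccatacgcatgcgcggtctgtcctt
Rrp9, chr9:106477209-106477308, plus strand: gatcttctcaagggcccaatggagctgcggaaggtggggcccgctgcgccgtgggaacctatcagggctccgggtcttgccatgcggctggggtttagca
The capitals in Noc4l mark TGACGTCA, the palindrome bound by CREB and ATF family factors, at bases -32 to -25. This motif, searched after the sequences had been seen, was in 1 of 36 member windows (2.78%) and in 2.64% of the measured genes with a window. A match of letters is a description and no evidence of binding.

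Within control cells 0 of 39 members were called for the medium, by limma, against 0.343% of all genes, and 8 members and 2897 of 22180 genes had an unadjusted p under 0.05. The median difference was 0.04, with 28 of 39 members above 0, beside 51.7% of all genes. It was 0.12 (30 of 39) without culture 16, 0.02 (23 of 39) without culture 5 and 0.00013 (20 of 39) after a further quantile normalisation. The smallest p belonged to Polr1a, at -0.24 ± 0.07 (SE; limma adjusted p = 0.106) and lower in 6 of 6 cultures. Ubtf had 0.29 ± 0.09, Bop1 0.31 ± 0.10, Noc4l 0.26 ± 0.10 and Nob1 0.28 ± 0.11, with limma adjusted p between 0.137 and 0.266. Bop1 was higher in 6 of 6 control cultures.

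Within undernourished cells Ubtf was called, as 1 of 39 members beside 1.46% of all genes called (0.726% higher), with a difference of 0.37 ± 0.09 (SE; limma adjusted p = 0.0300) and 6 of 6 cultures higher. The call was lost without culture 9, 4, 1 or 12 (adjusted p 0.0907, 0.188, 0.0976 and 0.109) and where the fit held the 12 undernourished arrays alone (0.107). The median difference was 0.15 over the members (0.11 without culture 12 and 0.25 without culture 20). Above 0 were 34 of 39 members, among them 11 of 11 small subunit genes, beside 51.1% of all genes. The members next by p were Rrp9 at 0.29 ± 0.09, Noc2l at 0.41 ± 0.13, Mybbp1a at 0.27 ± 0.09 and Nob1 at 0.34 ± 0.11, with limma adjusted p between 0.106 and 0.142.

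The medium effect was then compared between the diets. In the test of the medium effect in undernourished minus that in control, limma called 0 of 39 members and 0 of 22180 genes (0%), with 0 members and 643 genes at an unadjusted p under 0.05. The difference of effects was above 0 for 31 of 39 members, beside 47.4% of all genes, with a median of 0.09 over the members. That median was 0.05 without culture 16 (26 of 39 above 0), 0.05 without culture 4 or 9 and 0.17 without culture 20. Polr1a had the smallest p, at 0.19 ± 0.10 (95% interval -0.01 to 0.39), followed by Nop14 at 0.31 ± 0.18, Rrp12 at 0.22 ± 0.15, Mybbp1a at 0.18 ± 0.12 and Nop58 at 0.29 ± 0.20. Mybbp1a was at 9.11, 9.31 and 9.66 in control standard, 9.23, 9.41 and 9.61 in control limited, 9.06, 9.18 and 9.41 in undernourished standard and 9.34, 9.44 and 9.64 in undernourished limited arrays. Rrp12, an export factor of pre-ribosomes, was at 8.51, 8.74 and 9.08, then 8.67, 8.86 and 8.96, then 8.24, 8.72 and 8.81, and then 8.67, 8.95 and 9.19 in the same order of groups. In both genes the media overlapped in each diet. Nop58 was at 9.70, 9.76 and 10.19, then 9.55, 9.87 and 10.14, then 9.40, 9.74 and 10.11, and then 9.47, 10.16 and 10.36, again overlapping. Nop14 was at 8.76, 9.14 and 9.37 in control standard and 8.92, 9.06 and 9.28 in undernourished standard arrays. For Ubtf the difference of effects was 0.08 (95% interval -0.17 to 0.34) and for Bop1 it was -0.04 (-0.32 to 0.25). These intervals are as wide as the medium effects themselves, so neither equal nor unequal responses are shown.

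**Figure D3:**
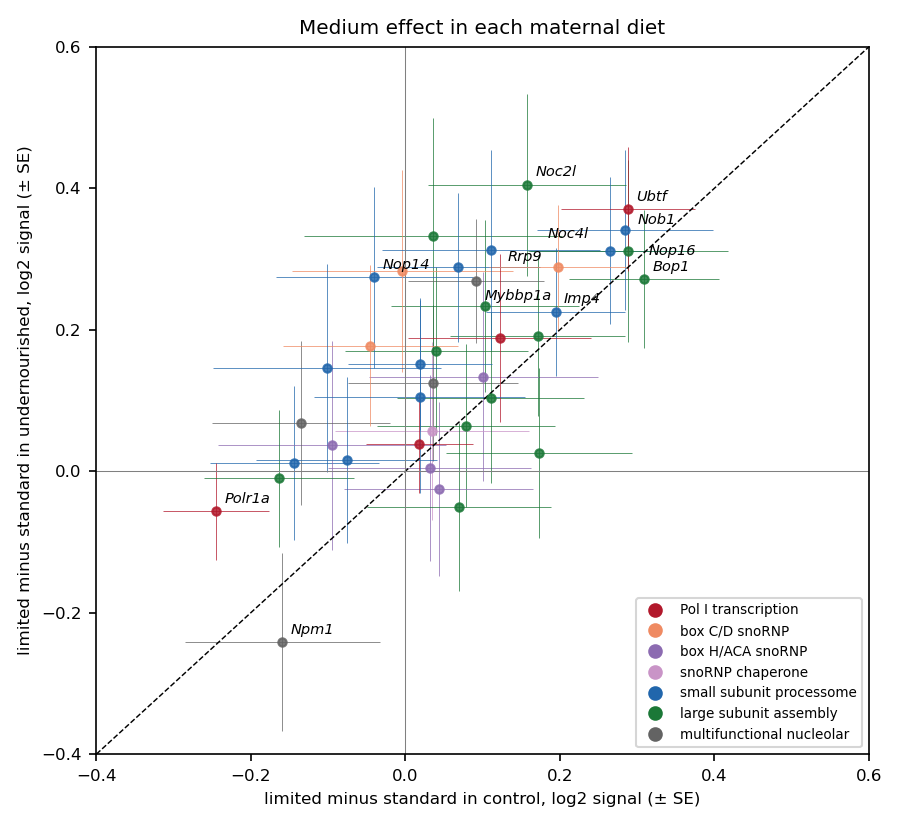
Medium effect (limited minus standard, log2 signal, ± SE) of each of the 39 members in control cells (horizontal axis) against undernourished cells (vertical axis), coloured by role, with a dashed line of equal effects. Most points, 31 of 39, lie above the line. Ubtf, Nob1, Noc4l, Nop16 and Bop1 lie close to the line.

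Maternal diet gave no call in either medium. In standard medium limma called 0 of 39 members and 0% of all genes, and 1 member and 697 genes had an unadjusted p under 0.05. The median over the members was -0.01, with 18 of 39 above 0, beside 53.2% of all genes. Noc2l had the smallest p, at -0.28 ± 0.13 (undernourished minus control; limma adjusted p = 0.9998), and its array ranges overlapped. Polr1a followed at -0.14 ± 0.07, Mybbp1a at -0.12 ± 0.09, Rrp1b at -0.13 ± 0.10 and Ddx10 at 0.11 ± 0.11. Rrp1b was at 6.83, 7.02 and 7.19 in control standard and 6.80, 6.89 and 7.08 in undernourished standard arrays. Ddx10 was at 8.23, 8.28 and 8.56 and at 8.20, 8.41 and 8.67 in the same order.

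In limited medium limma called 0 of 39 members and 0% of all genes for maternal diet, and 2 members and 1206 genes had an unadjusted p under 0.05. The median of undernourished minus control was 0.07 over the members, with 32 of 39 above 0, beside 50.9% of all genes. It was 0.05 without culture 9 and 0.14 without culture 20. Leaving out 1 culture gave 26 (without culture 1) to 33 (without culture 10) of 39 members above 0. All 11 small subunit genes were above 0, with a median of 0.15 and a lowest difference of 0.00055. Ddx10, a helicase of the small subunit pathway, was at 7.97, 8.19 and 8.40 in control limited and 7.96, 8.51 and 8.67 in undernourished limited arrays, a difference of 0.26 ± 0.11 (SE; limma adjusted p = 0.894). Nop14, the scaffold that joins Noc4l in the processome, was at 8.77, 9.08 and 9.26 in control limited and 8.77, 9.48 and 9.68 in undernourished limited arrays, a difference of 0.29 ± 0.13 (SE; limma adjusted p = 0.894). In Ddx10 the undernourished array of culture 20 alone lay within or below the control range, and in Nop14 those of cultures 20 and 8 did. Ncl had 0.19 ± 0.12, Utp4 0.15 ± 0.09 and Utp20 0.22 ± 0.14 in the same comparison. Utp4 was at 10.44, 10.63 and 10.76 in control limited and 10.51, 10.77 and 11.01 in undernourished limited arrays, which overlapped. Utp20 was at 7.69, 7.96 and 8.18 in control limited and 7.72, 8.20 and 8.50 in undernourished limited arrays, and Ncl at 9.87, 10.03 and 10.31 against 9.99, 10.27 and 10.59. These ranges overlapped too. With both media averaged per culture, limma called 0 of 39 members and 0% of all genes (1 member and 791 genes unadjusted), with a median of 0.02 over the members. Ddx10 again had the smallest p, at 0.18 ± 0.08, followed by Utp20, Ddx21, Nop14 and Noc2l at 0.17, 0.09, 0.13 and -0.16. Ddx21 was at 9.43, 9.54 and 9.75 in control standard, 9.46, 9.57 and 9.79 in control limited, 9.40, 9.59 and 9.94 in undernourished standard and 9.28, 9.79 and 9.99 in undernourished limited arrays. In standard medium Utp20 was at 7.44, 7.90 and 8.28 in control and 7.87, 8.02 and 8.28 in undernourished arrays.

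The response of the members varied strongly between cultures of the same diet. Each response is 1 limited array minus 1 standard array. The median over the 39 members was between -0.20 and 0.25 in control cultures and between -0.29 and 0.39 in undernourished cultures. The median over all genes stayed between -0.02 and 0.03. The normalised arrays had gene medians of 5.97 to 6.07, so that value had little room to move and is no measure of how 39 genes vary. Undernourished cultures 4, 9, 12 and 1 had medians of 0.39, 0.37, 0.35 and 0.21, with 33 to 36 of 39 members higher in limited medium. Control culture 5 was like these, at 0.25 and 33 of 39. Cultures 16, 8 and 20 went the other way, at -0.20, -0.09 and -0.29, with 7, 10 and 11 of 39 members higher. The remaining 4 cultures, all control, lay between 0.03 and 0.12.

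The widest contrasts between cultures were in members that were not called. Gnl3 responded by 0.78, 0.76 and 0.66 in undernourished cultures 4, 12 and 9 and by -0.61 in culture 20. Nop58 responded by 0.74, 0.67 and 0.71 in the same cultures and by -0.52 in culture 20. Nolc1 had 0.52 in culture 9 and -0.75 in culture 20, and Ncl had 0.67 and -0.67. These genes thus lay well above 0 in some cultures and well below it in culture 20.

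The called members are given in these cultures as a description, since a like response in all cultures is part of what a call rests on. In cultures 16, 8 and 20 Bop1 responded by 0.11, 0.15 and 0.29, Noc4l by 0.26, 0.25 and 0.43 and Rrp9 by 0.12, 0.06 and 0.27. Ubtf had -0.08, 0.15 and 0.01 and Nob1 0.01, 0.13 and 0.16. Imp4 had 0.03, -0.08 and 0.15, and Nop16 was at or near 0 in cultures 16 and 20 and at -0.14 in culture 8.

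**Figure D4:**
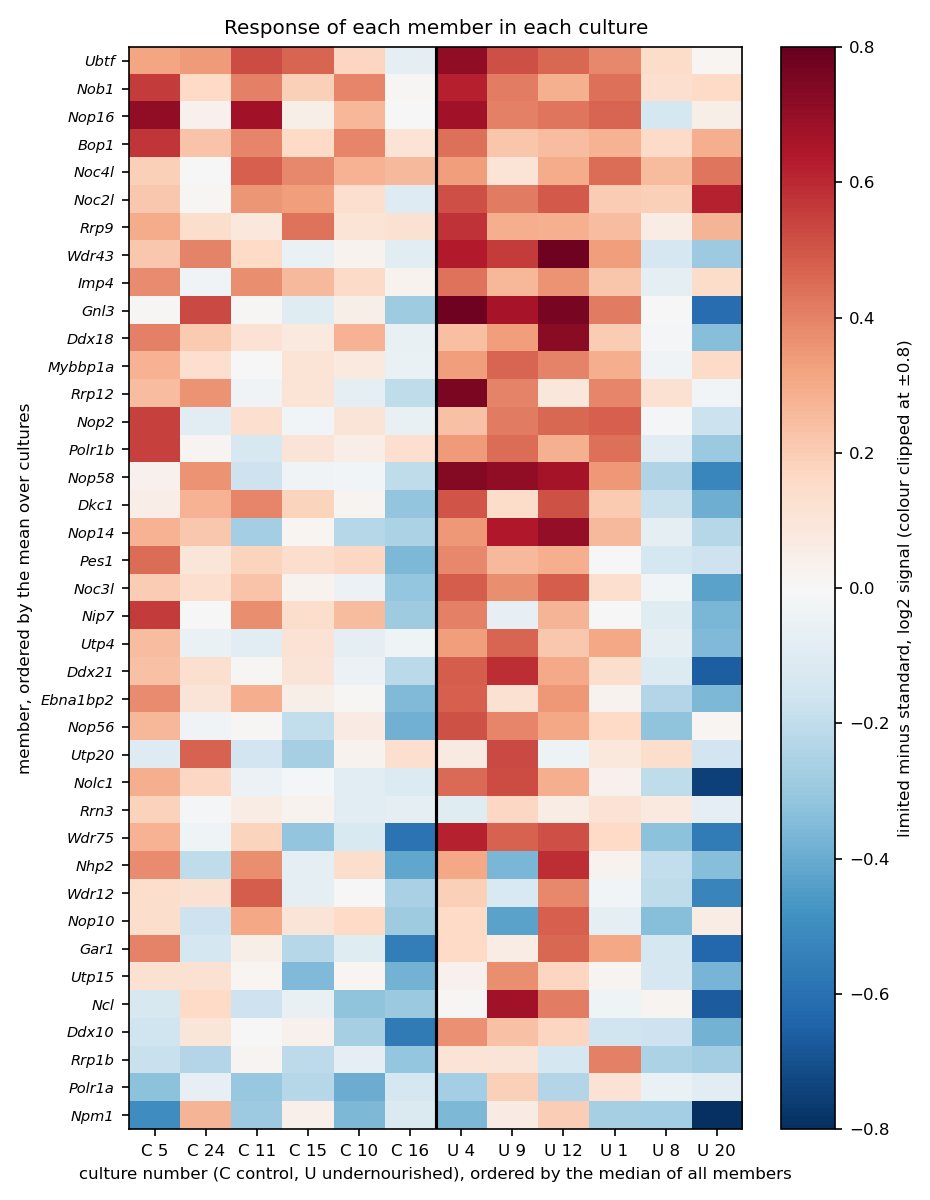
Limited minus standard log2 signal (colour, red above and blue below 0) of each member (rows, ordered by mean) in each culture (columns, control left, undernourished right, ordered by the members' median). Cultures 16, 8 and 20 are mostly blue below the upper rows, while Bop1, Noc4l and Rrp9 are red or pale across nearly all columns.

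Markers of other cells and of dividing cells also differed between these cultures. Culture 20 had fibroblast markers at 7.37 and glial markers at 6.63, and culture 16 had fibroblast markers at 7.47 and glial markers at 5.49, over both media. Control culture 24 had glial markers at 5.56, above those of culture 16, and a positive median response of the members, at 0.12. Culture 8, with the third negative median, had fibroblast markers at 5.46, the lowest of all cultures. Without cultures 16 and 20 the medium called 9 of 39 members, with a median difference of 0.18. Over all genes 1655 were called in that setting, against 1517 with all cultures kept. Cultures 16 and 20 had the lowest median responses of the members, at -0.20 and -0.29. A higher median of the members without them is therefore built into the choice of cultures. Proliferation markers (13 genes) averaged 6.03 ± 0.19 in control standard, 5.94 ± 0.16 in control limited, 6.31 ± 0.59 in undernourished standard and 5.92 ± 0.15 in undernourished limited arrays (SD, n = 6). Their median difference with the medium was -0.17, 1 of 13 was above 0 and 0 of 13 were called. Their standard array was highest in undernourished culture 4, at 7.34, against 5.90 in limited medium, and next in culture 20, at 6.65 against 6.14. Cultures 4 and 20 also had the highest and the lowest median response of the members, and the part of proliferation markers in the result was not tested.

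Of 121 further factors of the pathway 111 were measured; 7 rose (6.31%, beside 3.56% of all genes), 1 fell and 77 were above 0 over both diets, with a median of 0.05. The 8 calls are 7.21% of the list, near the 6.84% of all genes. The largest rises were in Imp3, a partner of Imp4, at 0.42 ± 0.10 (SE; limma adjusted p = 0.0116) and Rcl1, a small subunit cleavage factor, at 0.41 ± 0.09 (adjusted p = 0.00820). Polr1c, a subunit shared by RNA polymerases I and III, rose by 0.37 ± 0.09 (adjusted p = 0.0157) and Bysl, a small subunit factor, by 0.32 ± 0.10 (adjusted p = 0.0391), each higher in 12 of 12 cultures. Rbm34 fell by 0.33 ± 0.09 (adjusted p = 0.0243).

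The products that these factors assemble, the cytosolic ribosomal proteins, had 1 of 64 genes called higher and 0 lower, with a median of 0.12 and 49 of 64 above 0. Mitochondrial ribosomal proteins, which the nucleolus does not assemble, had 10 of 71 called higher and 1 lower, with a median of 0.11. By diet, the medians in control and undernourished cells were 0.04 and 0.15 for the members. Without culture 16 the control median of the members was 0.12, and without culture 5 it was 0.02. In the same order, the medians were 0.14 and 0.06 for cytosolic and 0.17 and 0.03 for mitochondrial ribosomal proteins. Whether the lists differ in this was not tested.

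Of 7 regulators of growth Max, the partner of Myc at the E-box, rose by 0.25 ± 0.07 (SE; limma adjusted p = 0.0249). Myc itself had 0.29 ± 0.15 (adjusted p = 0.300) and was higher in 6 of 12 cultures. Its difference was -0.07 ± 0.22 in control and 0.65 ± 0.22 in undernourished cells (limma adjusted p = 0.143), without passing in either.

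The called members had a shorter genomic span in the RefSeq annotation than the others, by median. It was 8.11 kb, against 16.1 kb for the other 32 members and 22.0 kb for genes at or above the median signal of the table. Among the 13 shortest members 4 were called, among the 13 of middle length 3, and among the 13 longest 0. Genes at or above the median signal showed a like order: 9.07% of those as short as the first class were called higher and 2.25% lower, against 4.00% higher and 8.68% lower among those as long as the last. Over the 39 members span and difference had a Spearman rho of -0.18, as a description. The part of gene length in the result was not tested.

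For 4 members the array held further clusters, and none of these differed in sign from the cluster used. The difference was 0.02 in the second cluster of Ddx18, -0.13 in that of Npm1 and 0.21 in that of Ddx21, and 0.12 and 0.28 in the further clusters of Nop56.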

How the data were processed

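Total RNA of 24 samples, 6 in each of 4 groups, was extracted with Trizol, labelled with biotin and hybridised to 1 Affymetrix array each, per the labels' protocols. The deposited values were made with RMA in Affymetrix Expression Console, per the submitters' processing notes; for versions and genome build, nothing is given in the sources used here. Since no base is stated, the deposited values (1.69 to 14.1) were taken to be log2 signal from their range. Clusters (41345) were named through the platform annotation and RefSeq, and 23521 had exactly 1 symbol. Each gene took its brightest cluster.

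Genes were tested with limma 3.58.1 in R 4.3.3 (lmFit, eBayes) on all 24 arrays in 4 groups, two-sided, with Benjamini-Hochberg adjustment over 22180 genes and a threshold of 0.05. Diet over both media was tested on culture means. The procedure was tested on simulated data. The p-values reflect only how far these samples scatter, which may be partly technical, and precision is limited by the number of arrays. Members, lists, motifs and tests were chosen with earlier results of these data known. Array values are given for members called in any comparison and for the 5 with the smallest p where fewer than 5 were called, in the groups compared; of other pathway genes, up to 4 called in each direction are named. The alternatives were other normalisations, blocks, weights, filters, thresholds and left-out cultures.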

Additional observations from a re-analysis of the deposited data

Results flagged for a closer look

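Of 76 groups of 6 arrays examined over 19 members, 2 held an array far from the other 5, where chance alone flags about 1 in 20 groups. Ddx10 was at 7.96 in undernourished limited culture 20, against 8.45 to 8.67 in the other 5 arrays, a gap of 0.69 of the range. Rrp12 was at 8.24 in undernourished standard culture 4, against 8.67 to 8.81 in the other 5 arrays, a gap of 0.756 of the range. No member had all control cultures responding one way and all undernourished cultures the other.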

How the results depend on the processing

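Over both diets the medium called 7 members, and 5 to 10 under the alternatives that kept all cultures; of these, the random block, array weights, the bright genes alone, the threshold of 0.1 and a further quantile normalisation each included Polr1a as lower, as did leaving out culture 9. Leaving out 1 culture number gave 3 (without culture 4: Bop1, Noc4l and Ubtf) to 8, with 4 without culture 5. Ubtf, Bop1 and Noc4l passed in 23 of 23 alternatives (adjusted p up to 0.00884, 0.0351 and 0.0472), Rrp9 in 22, Nob1 in 21, Nop16 in 14 and Imp4 in 10. Culture numbers were not taken as pairing the arrays: only 10 of 12 correlations between same-numbered arrays were over 0.1 (lowest -0.05), although 20 of 24 arrays correlated best with their own number. With the number as a replicate block, 9 members were called over both diets, 1 in control (Bop1, adjusted p = 0.0427) and 5 in undernourished cells (Nob1, Noc2l, Noc4l, Rrp9 and Ubtf), and all genes called over both diets went from 1517 to 2597. With the number as a random block, 10 were called over both diets, 1 in control (Polr1a, lower, adjusted p = 0.0442) and 3 in undernourished cells (Noc2l, Rrp9 and Ubtf). Over both diets, each block kept the 7 calls and added Noc2l (limma adjusted p = 0.00495 replicate, 0.0191 random) and Mybbp1a (0.0433 and 0.0340). The random block also added Polr1a, as lower (0.0309). In control, array weights called 1 (Polr1a, adjusted p = 0.0467). In undernourished cells, fitting these groups alone called 0, leaving out cultures 16 and 20 called 2 (Nob1 and Ubtf), and leaving out 1 culture called 0 to 1. The cause of these shifts was not tested. The maternal diet and difference tests called 0 members under every alternative run. Of 851 single-gene alternatives, 812 kept direction and side of the threshold, 30 lost the call, 9 gained one and 0 reversed. The total includes the maternal diet and difference tests, whose main fits called 0 of 22180 genes, so keeping the side was all but fixed there. All 30 losses fell on calls: Imp4, Nop16, Nob1 and Rrp9 over both diets and Ubtf in undernourished cells. The total is therefore no measure of how stable the calls are.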
